A study of Sus scrofa with 105 samples.

Results

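The miRNAs miR-143 and miR-145, and miR-199 and miR-214, associated with mural cells (the smooth muscle cells and pericytes that wrap blood vessels), were followed through piglet brain after diffuse traumatic brain injury. The 8 listed names are ssc-miR-143-3p, ssc-miR-143-5p, ssc-miR-145-3p, ssc-miR-145-5p, ssc-miR-199a-3p, ssc-miR-199a-5p, ssc-miR-199b-5p and ssc-miR-214, of 448 miRNAs in the table once repeated entries were merged. The rule takes them by name, though with earlier results of these data known. For 7 of the 8 names a row of that exact name was found. The name ssc-miR-214 has no such row, and its precursor's arms ssc-miR-214-3p and ssc-miR-214-5p were taken in its place, which gives 9 mature miRNAs.

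The labels give 4 groups of female piglets. Sham or naive animals are labelled together, untreated, with a survival of 0 to 8 days (called sham here). Injured untreated animals were studied at 1 day or at 1 week, the latter labelled 6 to 8 days. The remaining injured animals received cyclosporine A (CsA, a calcineurin inhibitor) intravenously at 20 mg/kg per day, as a loading dose 6 hours after injury and a 24 hour infusion, and survived 30 hours. No vehicle group and no untreated injured group at 30 hours was analysed here, so the CsA group and the 1 day group differ in survival time as well as in drug. The samples are fixed, paraffin-embedded frontal lobe (18 sham, 10 at 1 day, 15 at 1 week and 9 CsA libraries) and hippocampus with amygdala (18, 10, 15 and 10 libraries), from 53 animal codes of which 52 gave both regions.

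As background, miR-143 and miR-145 are cut from neighbouring hairpins of 1 shared transcript, which serum response factor and myocardin drive in smooth muscle, and they are used as markers of contractile smooth muscle and of pericytes. miR-199a and miR-214 come from a transcript antisense to a dynamin gene and are abundant in mesenchymal cells such as fibroblasts and mural cells, and miR-199b lies within another dynamin gene. Each hairpin yields a 5p and a 3p arm, one of which is usually kept and the other mostly degraded. In the RefSeq gene table for Sscrofa11.1, MIR143 and MIR145 are next neighbours, as are MIR214 and MIR199A-1, both of which overlap DNM3. MIR199A-2 overlaps DNM2 and MIR199B overlaps DNM1. The row named for miR-199b-3p was merged with that of miR-199a-3p as a repeat, so ssc-miR-199a-3p below can hold reads of the mir-199b gene too.

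Library depth differed between the groups and bears on every comparison with sham and on that of 1 week with 1 day. The shallowest library held 98008 counts, the deepest 12703535 and the median library 7257404. In the frontal lobe the geometric mean total was 3658665 counts in sham, 8939708 at 1 day, 6093348 at 1 week and 7892938 with CsA. The same means for hippocampus and amygdala were 4322559, 9018693, 6331124 and 9094879 counts. The 3 libraries with fewer than 1000000 counts were all sham, 2 of frontal lobe and 1 of hippocampus and amygdala. The first 2 digits of the animal codes, whose meaning the labels do not give, were also spread unevenly: codes starting with 12 or 13 were absent at 1 week, and codes starting with 14 to 17 were absent at 1 day and with CsA. Levels are given as CPM, the count per 1000000 counts of the library, scaled with TMM factors within each region.

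Among the 9 miRNAs, ssc-miR-143-3p was by far the most abundant, with 2701130 counts or 95.5% of all counts of the set. In frontal sham libraries its level was at rank 30 of 448 miRNAs, that of miR-145-5p at rank 116, miR-199a-3p at 178, miR-199b-5p at 210, miR-199a-5p at 232, miR-145-3p at 236, miR-143-5p at 305 and miR-214-3p at 309. The order was nearly the same in the hippocampus and amygdala, where the ranks were 32, 120, 171, 211, 229, 249, 303 and 286. The mean levels in frontal sham libraries were 3027 CPM ± 863 (SD, n = 18) for miR-143-3p and 118 ± 29.5 CPM for miR-145-5p. They were 24.0 ± 11.2 CPM for miR-199a-3p, 8.98 ± 4.85 for miR-199b-5p, 5.12 ± 2.31 for miR-199a-5p and 4.68 ± 3.75 for miR-145-3p. The gaps between the last 3 of these were within their spread. The ranges of the first 3 did not overlap in sham, and miR-199a-3p and miR-199b-5p differed in mean by more than either SD while their ranges overlapped. The library of 98008 counts enters these means with 15.5 CPM of miR-145-3p, the highest in sham, where the median was 3.23. It enters with 0.0 CPM of each miR-199 member. Without spike-ins, a level set against that of another miRNA also carries the efficiency with which each was ligated and read.

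The minor arms were close to the limit of detection. miR-143-5p had 255 counts over the whole series and was above 0 in 70 of 105 libraries, and miR-214-5p had 13 counts in 9 libraries. Neither passed the filter on low counts in any fit. miR-214-3p, with 710 counts in 93 libraries, passed in the hippocampus and amygdala and in the fit of both regions but not in the frontal lobe. This left 6 of the 9 tested in frontal lobe, 7 in the hippocampus and amygdala, and 7 between the regions.

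Brain tissue of all groups carried the miRNAs of other cell types as well. The summed level of 14 neuron-enriched miRNAs ran from 31386 to 52092 CPM over all sham libraries and that of the 2 arms of miR-126, an endothelial miRNA, from 3172 to 7618 CPM. The summed level of 8 cardiac and skeletal muscle miRNAs stayed between 72.0 and 357 CPM in sham. In such bulk tissue, fewer cells of a type and less RNA per cell cannot be told apart.

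At 1 day after injury, the frontal lobe held more miR-143-3p and more miR-199a-3p than sham, while neither arm of miR-145 passed the test. miR-143-3p lay between 1493 and 5068 CPM in sham with a median of 2984, and between 3262 and 4987 CPM at 1 day with a median of 3923. All 10 libraries at 1 day were above the sham median, but the ranges overlapped. The difference was 0.38 ± 0.15 on the log2 scale (SE; 95% interval 0.09 to 0.68), a 1.31-fold rise (edgeR adjusted p = 0.0271).

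miR-199a-3p was called as well. Its sham levels ran from 0.0 to 42.8 CPM with a median of 23.3, and those at 1 day from 29.0 to 50.0 CPM with a median of 37.5, so that all 10 again lay above the sham median. The rise was 0.57 ± 0.18 on the log2 scale (SE), or 1.49-fold (edgeR adjusted p = 0.00976). The sham library at 0.0 was the shallowest of the series, with 98008 counts, where a count of 0 allows up to 46.6 CPM on this scale, more than the highest sham level. For miR-199b-5p the median went from 7.76 CPM in sham (0.0 to 19.8) to 12.8 CPM at 1 day (8.50 to 17.8), a difference of 0.47 ± 0.21 on the log2 scale that missed the threshold (edgeR adjusted p = 0.0616). It passed with DESeq2 (0.54, adjusted p = 0.0221) and with RLE scaling in edgeR (0.55, adjusted p = 0.0314).

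miR-145-5p, made from the same transcript as miR-143-3p, did not pass. Its median was 121 CPM in sham (46.6 to 171) and 113 CPM at 1 day (78.8 to 128), with a log2 difference of -0.14 ± 0.13 (95% interval -0.41 to 0.13, edgeR adjusted p = 0.391). miR-145-3p differed by -0.16 ± 0.24 and miR-199a-5p by 0.05 ± 0.18 (edgeR adjusted p = 0.603 and 0.905). miR-214-3p was too low to be tested under the filter, with 34 counts in 11 of 18 sham libraries and 84 counts in all 10 libraries at 1 day.

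Of the 6 tested, 2 were called and both were higher. Over all 284 miRNAs tested in that comparison, 44.7% were called, 18.7% as higher (53 higher and 74 lower; with RLE scaling 74 higher and 63 lower), so the share called among the 6 was below that of all miRNAs. The median log2 difference was 0.22 over the 6 and -0.04 over all. Both calls were lost when the log10 library total was a covariate: miR-143-3p then differed by 0.12 (edgeR adjusted p = 0.558) and miR-199a-3p by 0.16 (edgeR adjusted p = 0.485). Over all miRNAs 56 of 284 were called in that fit, 86 of 278 within codes 10 or 11 and 0 of 284 within codes 12 or 13. Within the animals with codes 10 or 11 the differences were 0.57 and 0.88 (edgeR adjusted p = 0.0229 and 0.0369), within codes 12 or 13 they were 0.16 and 0.22 (edgeR adjusted p = 0.645 and 0.571), and the call of miR-143-3p was lost without the 3 shallow libraries (0.33, adjusted p = 0.0572) or without frontal replicate 9 of the 1 day group (0.34, adjusted p = 0.0614).

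**Figure D1:**
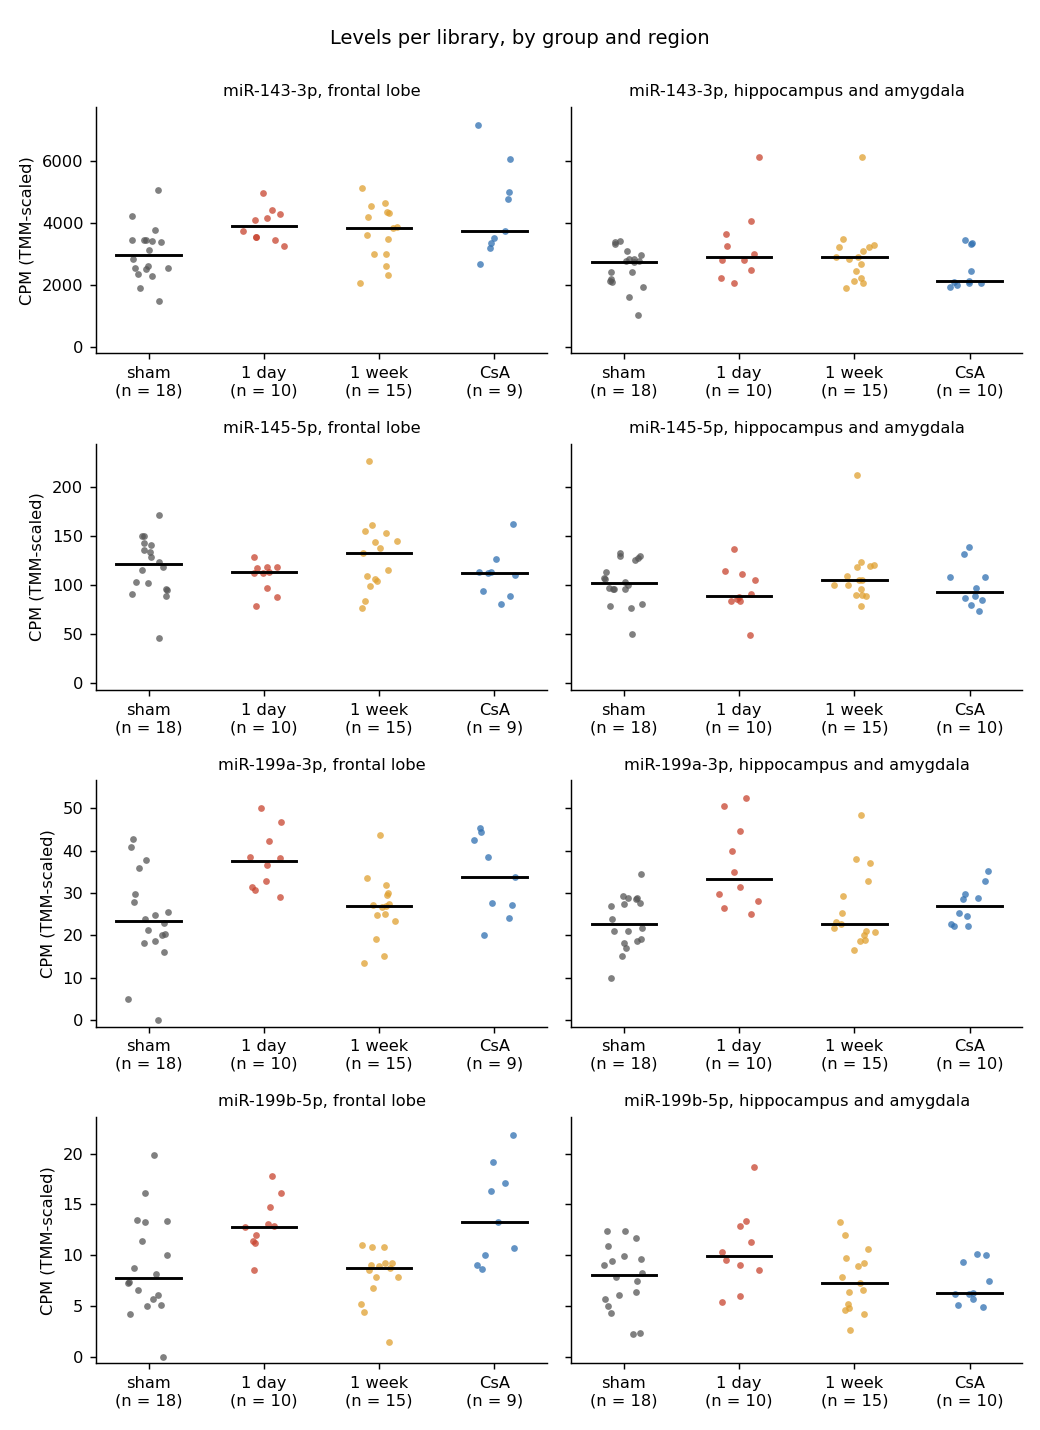
Level of miR-143-3p, miR-145-5p, miR-199a-3p and miR-199b-5p (rows) in each library of the frontal lobe (left) and of the hippocampus and amygdala (right). Each point is 1 library, the vertical axis is CPM scaled with TMM factors, and the bar is the group's median; the 1 day libraries of miR-199a-3p in the frontal lobe lie between 29.0 and 50.0 CPM, all above the sham median of 23.3, while miR-145-5p overlaps throughout.

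miR-199a-3p was also higher than in sham at 1 day in the hippocampus and amygdala, where no other member passed. It ran from 9.95 to 34.6 CPM in sham with a median of 22.8, and from 24.9 to 52.4 CPM at 1 day with a median of 33.2. All 10 libraries at 1 day exceeded the sham median. The rise was 0.64 ± 0.15 on the log2 scale (SE), or 1.56-fold (edgeR adjusted p = 0.000644). It was 0.48 with the log10 library total as a covariate (edgeR adjusted p = 0.0309) and 0.65 within codes 10 or 11 (edgeR adjusted p = 0.0407). The call was lost within codes 12 or 13 (0.34, edgeR adjusted p = 0.321), where 0 of all 288 miRNAs were called. No single library ended it, with values from 0.56 to 0.69 as each was left out.

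miR-143-3p moved from a median of 2755 CPM in sham (1029 to 3419) to 2910 CPM at 1 day (2074 to 6131), a difference of 0.35 ± 0.16 that missed the threshold (edgeR adjusted p = 0.0598). Replicate 2 of the 1 day group held the highest value, 6131 CPM, and the next library held 4080 CPM. Without it the difference was 0.19 (edgeR adjusted p = 0.271). The 2 arms of miR-145 differed by -0.12 ± 0.14 (5p) and 0.15 ± 0.30 (3p), and the latter turned to -0.18 without that library. miR-199a-5p differed by 0.31 ± 0.20, miR-199b-5p by 0.35 ± 0.20 and miR-214-3p by 0.51 ± 0.33 (edgeR adjusted p = 0.187, 0.136 and 0.183). In all 1 of 7 was called, against 48.6% of 290 miRNAs, 28.3% as higher.

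With CsA, the frontal lobe held more miR-143-3p and more miR-199b-5p than sham. miR-143-3p ran from 2670 to 7186 CPM in the 9 treated animals with a median of 3732, and 8 of 9 exceeded the sham median of 2984. The 3 highest libraries, replicates 4, 5 and 6, were at 6073, 7186 and 5015 CPM. The rise was 0.54 ± 0.15 on the log2 scale, or 1.45-fold (edgeR adjusted p = 0.00622). miR-199b-5p ran from 8.61 to 21.8 CPM with a median of 13.3, and all 9 exceeded the sham median of 7.76. Its rise was 0.57 ± 0.22, or 1.49-fold (edgeR adjusted p = 0.0362), and 8 single libraries, 4 of sham and 4 of CsA, each ended the call when left out (0.47 to 0.68 over all libraries left out, highest adjusted p = 0.109).

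miR-199a-3p, at 20.1 to 45.4 CPM with a median of 33.9, differed from sham by 0.41 ± 0.19 (edgeR adjusted p = 0.0799). miR-145-5p had a median of 113 CPM (80.3 to 162) against 121 in sham, and differed by -0.11 ± 0.14 (edgeR adjusted p = 0.573). miR-145-3p and miR-199a-5p differed by -0.12 ± 0.25 and -0.01 ± 0.19. In all 2 of 6 were called, both higher, against 34.2% of 284, 14.8% as higher. With the log10 library total as a covariate miR-143-3p differed by 0.31 and miR-199b-5p by 0.42 (edgeR adjusted p = 0.118 and 0.224). Within codes 10 or 11 they differed by 0.51 and 0.45 and within codes 12 or 13 by 0.32 and 0.39, with no call. Over all miRNAs 20 of 284 were called with that covariate, 0 of 278 within codes 10 or 11 and 0 of 284 within codes 12 or 13.

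The hippocampus and amygdala gave no call between CsA and sham. miR-143-3p ran from 1945 to 3452 CPM with CsA and had a median of 2118, below the sham median of 2755, but the fitted difference was -0.03 ± 0.16 (95% interval -0.35 to 0.29). Of its 10 libraries 7 lay between 1945 and 2444 CPM and the other 3 between 3334 and 3452 CPM. miR-199a-3p differed by 0.23 ± 0.16, miR-199b-5p by -0.20 ± 0.21 and miR-145-3p by -0.45 ± 0.31. None of 7 had an unadjusted p under 0.05, against 97 of all 290 miRNAs. DESeq2 called none of the 7, and 20.3% of 290 miRNAs were called by edgeR (32 higher and 27 lower, with RLE scaling 25 higher and 32 lower).

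Directly against the untreated animals at 1 day, no member was called with CsA in either region. Over all miRNAs edgeR called 0.0% of 284 in frontal lobe and 0.0% of 290 in the other region, and DESeq2 called 0 and 7 of them. In the frontal lobe the difference of miR-143-3p was 0.15 (95% interval -0.19 to 0.49) and that of miR-199a-3p -0.16 (-0.59 to 0.27). No member had an unadjusted p under 0.05 there, against 12 of all 284 miRNAs. In the hippocampus and amygdala 69 of all 290 miRNAs had an unadjusted p under 0.05. So did 4 of the 7 members, all lower with CsA: miR-143-3p by -0.39 (-0.75 to -0.02), miR-199a-3p by -0.42 (-0.77 to -0.07), miR-199a-5p by -0.51 (-0.96 to -0.06) and miR-199b-5p by -0.56 (-1.01 to -0.10). Their adjusted p in edgeR were 0.182, 0.132, 0.151 and 0.130, and DESeq2 called no member in either region. These intervals are wide, and the missed threshold does not show that treated and untreated animals were alike.

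At 1 week no member differed from sham by the test: 0 of 6 were called in the frontal lobe and 0 of 7 in the other region, by edgeR and by DESeq2. Over all miRNAs edgeR called 0.0% of 284 and 0.345% of 290, and DESeq2 called 1 and 3. In the frontal lobe 19 of all 284 miRNAs had an unadjusted p under 0.05. Among the 6 members 2 did, miR-143-3p with 0.28 ± 0.13 and miR-199a-5p with -0.41 ± 0.17 (edgeR adjusted p = 0.683 and 0.653). The median of miR-143-3p was 3837 CPM (2073 to 5129) and that of miR-145-5p 133 CPM (77.1 to 226), the highest of the 4 groups for miR-145-5p. Within the animals with codes 14 to 17 alone, miR-143-3p was called at 1 week (0.49, edgeR adjusted p = 0.0125), as were 64 of all 270 miRNAs tested in that fit. No member of the other region had an unadjusted p under 0.05, against 15 of all 290 miRNAs. There 1 library, replicate 11, held both the highest miR-143-3p (6141 CPM, the next at 3491 CPM) and the highest miR-145-5p (212 CPM, the next at 124 CPM) of its group.

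Between 1 day and 1 week the 3 members of the miR-199 family fell in the frontal lobe, and the products of mir-143 and mir-145 did not change by the test. miR-199a-3p went from a median of 37.5 CPM at 1 day to 27.0 CPM (13.6 to 43.7) at 1 week, with 14 of 15 libraries under the 1 day median. It fell by 0.50 on the log2 scale (SE 0.19, edgeR adjusted p = 0.0347). miR-199b-5p went from 12.8 to 8.72 CPM (1.48 to 11.0), with all 15 libraries under the 1 day median, and fell by 0.70 (SE 0.21, adjusted p = 0.0104), a 1.62-fold decrease. miR-199a-5p went from 6.19 to 4.12 CPM (1.99 to 6.15), with all 15 under the 1 day median, and fell by 0.46 (SE 0.19, adjusted p = 0.0484).

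miR-143-3p differed by -0.11 ± 0.15 and miR-145-5p by 0.26 ± 0.14 between these times (edgeR adjusted p = 0.563 and 0.132). Only miR-199a-3p passed in the hippocampus and amygdala, with a median of 33.2 CPM at 1 day and 22.6 CPM (16.6 to 48.5) at 1 week and a fall of 0.46 on the log2 scale (SE 0.16, adjusted p = 0.0242). miR-199b-5p there differed by -0.45 ± 0.21 (edgeR adjusted p = 0.0855). The counts were 3 of 6 and 1 of 7, all lower, against 35.9% of 284 (12.7% as lower; 66 higher and 36 lower, with RLE scaling 56 and 56) and 29.3% of 290 (17.6% as lower; 34 higher and 51 lower, with RLE scaling 39 and 37). All 4 calls were lost with the code class as a covariate and within codes 10 or 11, the only codes present at both times. Over all miRNAs 54 of 284 and 19 of 290 were called with that covariate. Within codes 10 or 11 the counts were 63 of 278 and 33 of 290. The geometric mean library total was also lower at 1 week than at 1 day in both regions. With the log10 library total as a covariate, 1 member was called in the frontal lobe and none in the other region. Over all miRNAs 74 of 284 and 64 of 290 were called in those fits. The call of miR-199a-5p in the frontal lobe was lost without any of 22 single libraries, and that of miR-199a-3p without any of 3 libraries of 1 day in the frontal lobe (replicates 1, 8 and 9) or of 4 in the hippocampus and amygdala (replicates 2, 3, 4 and 8).

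**Figure D2:**
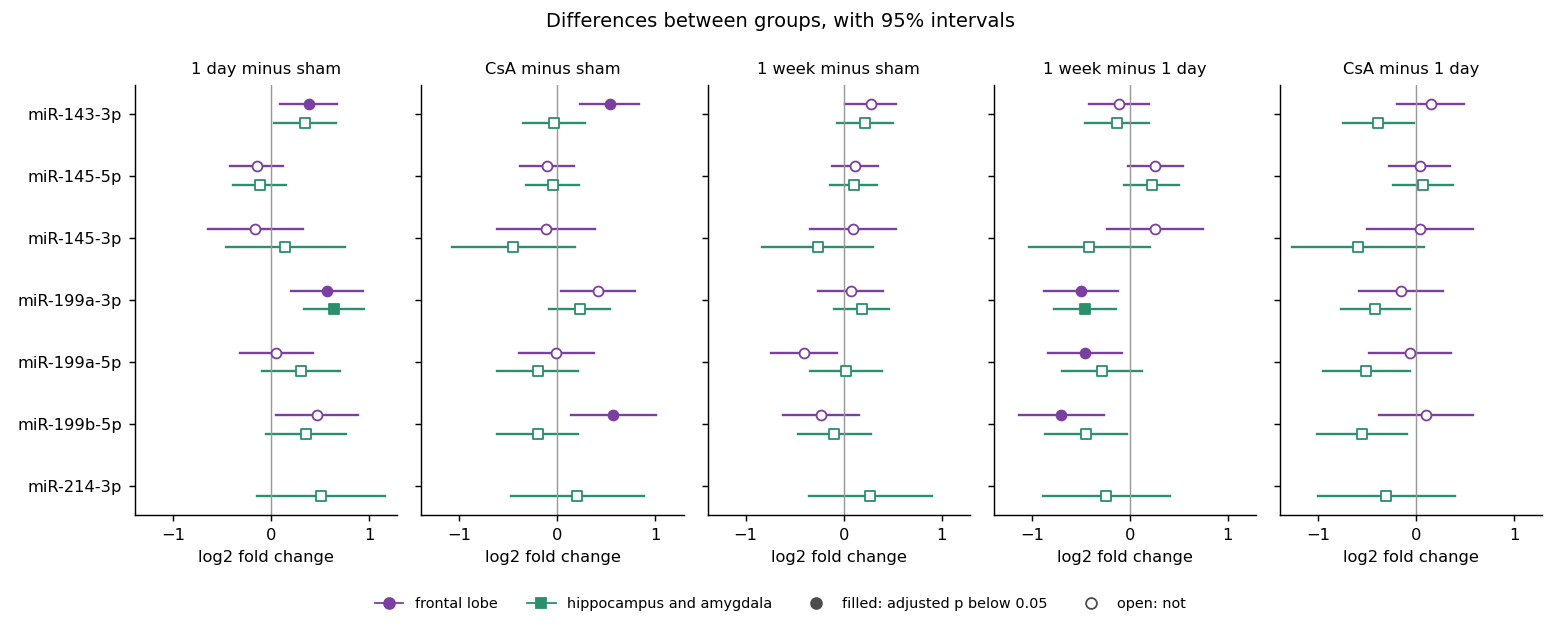
Fitted log2 fold change (horizontal axis) of each tested member (vertical axis) in 5 comparisons (panels), with 95% intervals as lines. Circles are the frontal lobe and squares the hippocampus and amygdala, and filled symbols passed an adjusted p of 0.05 in edgeR; filled symbols stand at miR-143-3p, miR-199a-3p, miR-199a-5p and miR-199b-5p, and both arms of miR-145 are open in every panel.

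Set against each other within a library, the 2 main products of the shared transcript shifted in the frontal lobe. For each library the ratio of miR-143-3p to miR-145-5p counts, each with a pseudocount of 0.5, needs no scaling factor. It can still vary with depth. Among frontal sham libraries miR-143-3p rose with the library total (Spearman's rho 0.60) and miR-145-5p did not (-0.04), and sham libraries were shallower. The ratio tests held no depth covariate, and the part of depth in the ratio was not tested. In frontal sham libraries the ratio ran from 16.0 to 44.1 with a median of 25.5, at 1 day from 27.7 to 52.8 with a median of 34.1, and with CsA from 24.1 to 63.2 with a median of 39.6. The mean of the log2 ratio was higher by 0.53 at 1 day, a 1.45-fold difference (permutation test, 2-sided, adjusted p = 0.0473 over the 50 ratio comparisons). With CsA it was higher by 0.60, or 1.52-fold (exact permutation test, adjusted p = 0.0473). At 1 week the ratio had a median of 29.0 (15.6 to 46.3) and differed from sham by 0.17 (permutation test, adjusted p = 0.638).

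The hippocampus and amygdala gave medians of 24.4 in sham (13.4 to 42.9), 32.2 at 1 day (24.6 to 51.1), 26.8 at 1 week (17.5 to 44.2) and 25.1 with CsA (18.5 to 34.5). There the difference between 1 day and sham was 0.46 on the log2 scale, or 1.37-fold, with an adjusted p of 0.0800 (permutation test), and that between CsA and sham was 0.02 (adjusted p = 0.983). The call at 1 day in the frontal lobe was lost without any of 19 of its 28 libraries (highest adjusted p = 0.0800, lowest difference 0.47) and that with CsA without any of 5 of 27. Within codes 10 or 11 the frontal differences were 0.40 and 0.63 and within codes 12 or 13 they were 0.42 and 0.31, with no call.

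**Figure D3:**
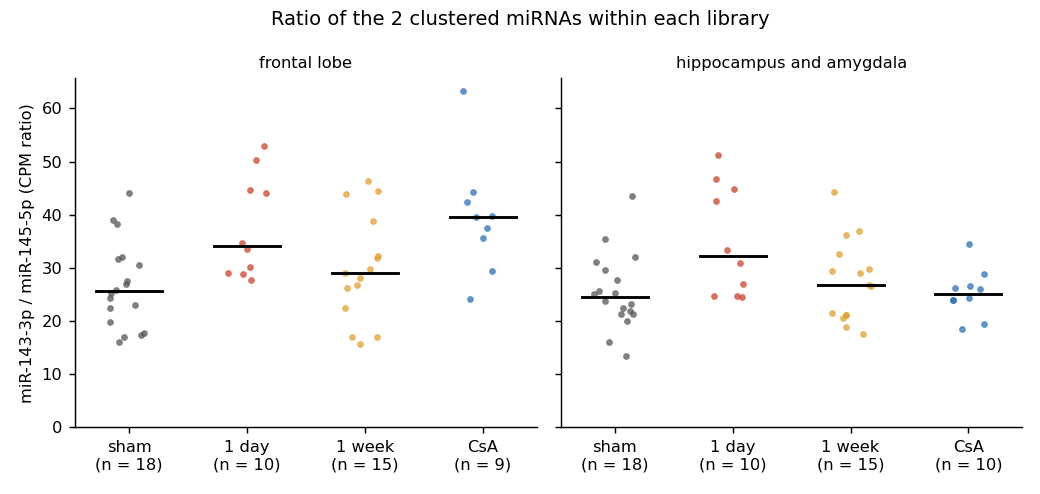
Ratio of miR-143-3p to miR-145-5p within each library (vertical axis, starting at 0) by group, in the frontal lobe (left) and the hippocampus and amygdala (right). Points are libraries, drawn without the pseudocount, and bars are medians; the frontal medians are 25.5 in sham, 34.1 at 1 day, 29.0 at 1 week and 39.6 with CsA.

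The arms of mir-143 and of mir-145 kept a strong imbalance in all groups. In frontal sham libraries miR-143-3p had 307012 counts in all and miR-143-5p 35, with 9 of 18 libraries at 0 for the latter. The median ratio within these libraries was 37.1 for miR-145-5p over miR-145-3p, so opposite arms dominated in the 2 neighbouring hairpins. The median ratio of miR-199a-3p to miR-199a-5p was 4.63, with the reads of miR-199b-3p counted in, so it is not a ratio within 1 hairpin. Over the whole series miR-199a-3p had 24567 counts, miR-199a-5p 4111 and miR-199b-5p 7946. The ratio of miR-199a-5p to miR-199a-3p was lower by 0.69 on the log2 scale at 1 week than in sham in the frontal lobe and by 0.72 at 1 day, neither past the threshold (permutation test, adjusted p = 0.0611 and 0.106). Shallow libraries raise the sham mean here. In that of 98008 counts both arms were at 0, so its ratio comes from the pseudocount alone. That of 678907 counts gave the highest sham ratio, 1.29 against a median of 0.216. The mean log2 ratio of miR-145-3p to miR-145-5p differed by at most 0.03 in size between any 2 groups in the frontal lobe. The sham mean had an SD of 1.31 and holds the library of 98008 counts. That library gave the highest sham ratio, 0.429 against a median of 0.0269, from 15.5 and 46.6 CPM of the 2 arms. The closeness of the means therefore does not show that the ratio was constant. The ratio of miR-143-5p to miR-143-3p was 2.83-fold higher (mean log2 ratio) at 1 week than at 1 day there (permutation test, adjusted p = 0.0473), but rests on 57 and 27 counts of miR-143-5p in the 2 groups, with the pseudocount added to both counts. That call was lost without any of 7 of the 25 libraries. In all 3 of the 50 ratio comparisons passed, all in the frontal lobe.

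Between the regions of the same animal 3 or 4 of the 7 tested members were called in each group, a share like that of all miRNAs (43.0% to 57.0% of 298). miR-143-3p was lower in the hippocampus and amygdala than in the frontal lobe in every group: by -0.32 ± 0.11 on the log2 scale in sham (lower in 13 of 18 animals), -0.45 ± 0.15 at 1 day (9 of 10), -0.38 ± 0.12 at 1 week (14 of 15) and -0.80 ± 0.16 with CsA (9 of 9). The adjusted p in edgeR, with the animal as a block, were 0.0174, 0.0118, 0.0108 and 3.03e-05. In the CsA animals this is a 1.75-fold difference. The call in sham was lost without the animal of frontal replicate 8 (-0.25, adjusted p = 0.0537).

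miR-145-5p was also lower there in sham (-0.29 ± 0.09), at 1 day (-0.33 ± 0.12) and at 1 week (-0.28 ± 0.10), with adjusted p of 0.00764, 0.0221 and 0.0182 in edgeR. Animal by animal the shift was less even: 10 of 18, 8 of 10 and 12 of 15 were lower, and the median log2 differences of the CPM values were -0.10, -0.16 and -0.15. With CsA it differed by -0.22 ± 0.13 (edgeR adjusted p = 0.132). The call at 1 day was lost without the animal of frontal replicate 1, and that at 1 week without that of replicate 10 or 13. Its less abundant arm miR-145-3p was lower at 1 week by -0.74 ± 0.24 (14 of 15 animals, edgeR adjusted p = 0.0111) and with CsA by -0.77 ± 0.30 (8 of 9, adjusted p = 0.0227; lost without the animal of frontal CsA replicate 1, 5 or 7).

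Of the miR-199 family, miR-199b-5p and miR-199a-5p differed between the regions in some injured groups. miR-199b-5p was lower in the hippocampus and amygdala by -0.47 ± 0.20 at 1 day (8 of 10 animals, adjusted p = 0.0439 in edgeR, lost without any of 7 animals) and by -0.98 ± 0.21 with CsA (8 of 9 animals, adjusted p = 9.37e-05), a 1.97-fold difference. In sham and at 1 week it differed by -0.20 ± 0.17 and -0.13 ± 0.17, without a call. miR-199a-5p was lower with CsA by -0.47 ± 0.19 (7 of 9 animals, adjusted p = 0.0335 in edgeR, lost without the animal of frontal CsA replicate 1, 4 or 5). miR-199a-3p passed in no group, with differences from -0.34 to -0.09. It was called in sham without the 3 shallow libraries and their animals (-0.32, adjusted p = 0.00596).

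miR-214-3p went the other way. In sham it had 34 counts over 18 frontal libraries and 92 over 18 of hippocampus and amygdala, and its level was higher in the latter by 1.28 ± 0.37 on the log2 scale, or 2.42-fold (15 of 18 animals, adjusted p = 0.00395 in edgeR). In the other 3 groups it was higher by 0.54 to 0.59 without a call. miR-199a-3p, of which 1 gene, MIR199A-1, lies next to MIR214, was not called as higher there in any group. Its row can also hold reads of MIR199A-2 and of the mir-199b gene, so its level does not report on MIR199A-1 alone. The difference of miR-214-3p rests on at most 9 counts in any frontal sham library.

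The members called were 3 of 7 in sham (1 higher, 2 lower), 3 of 7 at 1 day, 3 of 7 at 1 week and 4 of 7 with CsA, all lower in the injured groups. Over all 298 miRNAs tested, 47.3% were called in sham (21.8% higher, 25.5% lower), 46.6% at 1 day (21.5% lower), 43.0% at 1 week (21.8% lower) and 57.0% with CsA (28.2% lower). Both arms of endothelial miR-126 were lower in the hippocampus and amygdala in all 4 groups too, in sham by -0.41 ± 0.06 (3p) and -0.34 ± 0.10 (5p). This was not particular to them: 2 of 3 oligodendrocyte miRNAs were also lower in each group. Of 25 other miRNAs known from smooth muscle, pericytes or mesenchyme, 2 were higher and 4 lower in sham. The counts were 3 and 4 at 1 day, 1 and 5 at 1 week and 5 and 6 with CsA. Whether a region's share of vessels has a part in these differences was not tested. Without the block on animals the members called were 2, 0, 1 and 3 of 7, against 110, 109, 94 and 152 of all 298 miRNAs.

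Whether the region difference itself changed with injury or CsA was tested as an interaction, and edgeR called none of the 7 members in any of the 3 injured groups (0.0% of 298 miRNAs at 1 day, 0.0% at 1 week and 0.0% with CsA). With CsA 73 of all 298 miRNAs had an unadjusted p under 0.05, and 2 of the 7 members did. The region difference of miR-199b-5p was more negative than in sham by -0.78 ± 0.27 (edgeR adjusted p = 0.0801), and that of miR-143-3p by -0.49 ± 0.20 (edgeR adjusted p = 0.118). DESeq2 called 1 member, miR-199b-5p (-0.83, adjusted p = 0.0282), among 25 of all 298 miRNAs, and edgeR called it without the animal of frontal CsA replicate 2 or that of frontal sham replicate 18. No member had an unadjusted p under 0.05 at 1 day or 1 week (9 and 8 of all 298 miRNAs had), and DESeq2 called none there.

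**Figure D4:**
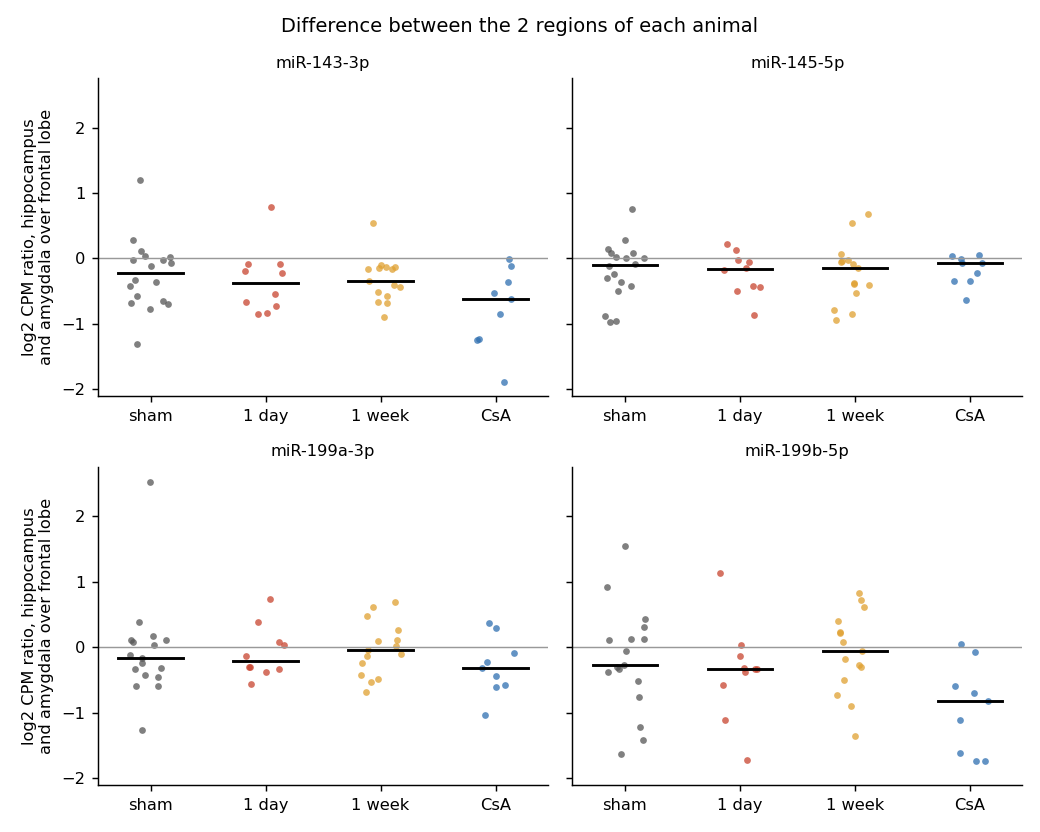
Log2 ratio of the CPM values of the hippocampus and amygdala over the frontal lobe (vertical axis) for each animal with both regions and both values above 0, by group, for 4 members (panels). Points are animals, bars are medians and the line at 0 marks equal levels; all 9 CsA animals lie under 0 for miR-143-3p.

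Across libraries the members did not follow 1 pattern. Over the 52 frontal libraries miR-143-3p followed miR-199a-3p (Spearman rho 0.79) and miR-199b-5p (0.65) with larger values than miR-145-5p (0.15), the other miRNA of its transcript. Over the 53 libraries of the hippocampus and amygdala the same 3 values were 0.65, 0.58 and 0.28. The 3 miR-199 members followed one another with rho from 0.60 to 0.69 in the frontal libraries and from 0.41 to 0.64 in the hippocampus and amygdala. miR-214-3p followed miR-199a-3p only loosely in the hippocampus and amygdala (0.29). These values describe libraries that share groups, depth and scaling, and carry no test.

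The miRNAs outside the set with the most similar pattern also differed from member to member. For miR-143-3p in the frontal lobe they were miR-660 (rho 0.83), miR-30e-5p (0.82) and miR-381-3p (0.81), and in the hippocampus and amygdala miR-30e-5p (0.61), endothelial miR-126-3p (0.57) and miR-381-3p (0.55). For miR-199a-3p they were miR-9-1 (0.90), miR-30e-5p (0.85) and miR-381-3p (0.83) in the frontal lobe, and miR-107 (0.81), miR-15b (0.78) and miR-30a-5p (0.77) in the other region. No miRNA followed miR-145-5p closely: the nearest were miR-150 (0.57) in the frontal lobe and miR-378b-3p (0.43) in the hippocampus and amygdala.

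The level of some members rose with the library total among sham animals alone, where no injury separates the libraries. Depth went with the code class there. Frontal sham libraries of codes 10 or 11 held 98008 to 5057795 counts and those of codes 12 or 13 held 4113777 to 12703535. These relations do not separate depth from code class. In the frontal lobe the log2 level of miR-199a-3p and the log10 total gave Pearson's r = 0.93 (permutation test over 18 animals, adjusted p = 0.00026 over 13 relations) and Spearman's rho = 0.67 (permutation test, adjusted p = 0.0398), with r = 0.61 without the 2 libraries farthest from the median total. For miR-143-3p the values were r = 0.70 (permutation test, adjusted p = 0.00568), rho = 0.60 (permutation test, adjusted p = 0.0560) and r = 0.53 without 2 libraries. For miR-145-5p r was 0.63 (permutation test, adjusted p = 0.0458), but rho was -0.04 and r was -0.19 without 2 libraries, so that relation rests on them. miR-199a-5p and miR-199b-5p gave r = 0.76 and 0.74 (permutation test, adjusted p = 0.0417 for both), with 0.38 and 0.44 without 2 libraries. The frontal library of 98008 counts held 0.0 CPM of miR-199a-3p, miR-199a-5p and miR-199b-5p. A count of 0 there allows up to 46.6 CPM, so the r values with that library rest in part on an unmeasured level. In the hippocampus and amygdala miR-199b-5p alone passed (r = 0.75, permutation test, adjusted p = 0.00568; rho = 0.38, adjusted p = 0.327; r = 0.58 without 2 libraries). The level of miR-199a-3p did not pass there (r = 0.14, permutation test, adjusted p = 0.681). The part of depth in the members' differences between groups was not tested beyond the fits with the library total as a covariate.

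**Figure D5:**
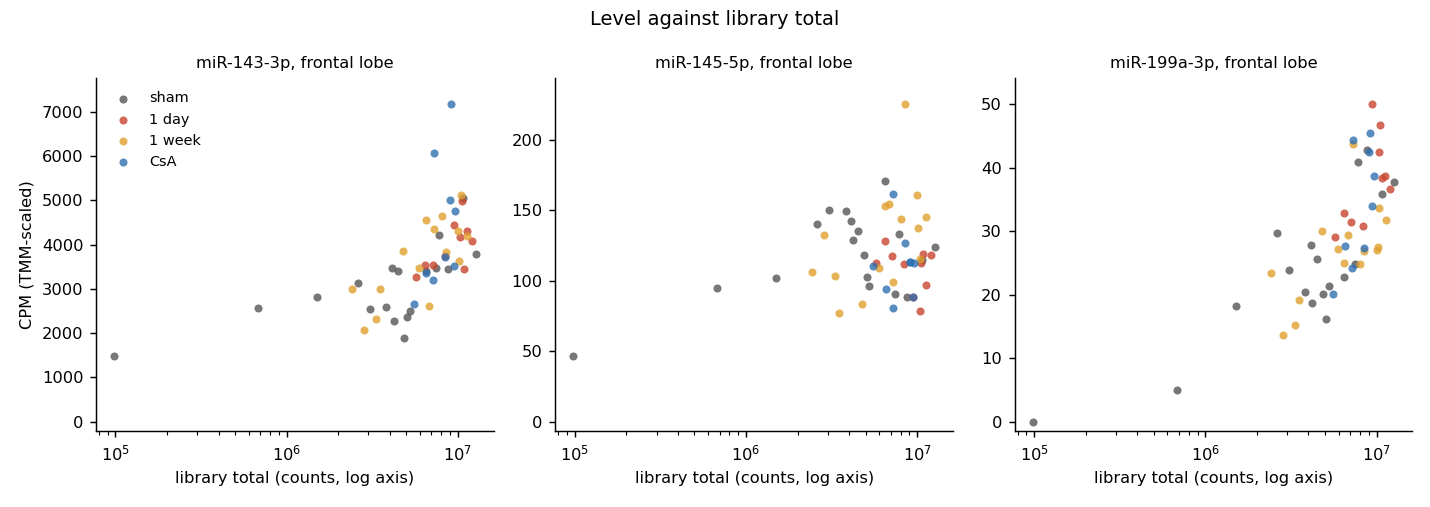
Level in CPM (vertical axis) against the library total in counts (horizontal axis, log scale) for each frontal library, coloured by group, for miR-143-3p, miR-145-5p and miR-199a-3p. miR-143-3p and miR-199a-3p are higher in deeper libraries, sham included, and the 2 shallowest sham libraries, at 98008 and 678907 counts, hold 0.0 and 4.98 CPM of miR-199a-3p. In the library of 98008 counts a count of 0 allows up to 46.6 CPM, so its 0.0 does not show a low level.

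Other miRNAs known from smooth muscle, pericytes or mesenchyme moved in both directions at 1 day. Of 27 in the table, 24 were tested in the frontal lobe, where 4 rose and 3 fell (median log2 difference 0.16, all miRNAs -0.04), and 24 in the hippocampus and amygdala, where 8 rose and 2 fell (0.18, all miRNAs 0.07). Over all miRNAs tested 44.7% and 48.6% were called in these comparisons, and neither 7 of 24 nor 10 of 24 exceeds that. miR-26a was the most abundant, at 21299 CPM ± 2822 (SD, n = 18) in frontal sham. Called in both regions were miR-22-5p (0.67 ± 0.21 and 0.63 ± 0.20), miR-221-5p (0.42 ± 0.14 and 0.72 ± 0.20) and miR-22-3p (-0.56 ± 0.10 and -0.39 ± 0.09). miR-125b fell in the frontal lobe, and miR-21-5p, miR-24-3p, miR-28-3p and miR-365-3p rose in the hippocampus and amygdala. Also miR-27b-3p rose by 0.57 ± 0.18 and 0.56 ± 0.12 and miR-29a-3p by 0.38 ± 0.10 and 0.41 ± 0.12 in the 2 regions, whereas miR-10a-5p fell by 1.41 and 1.51 on the log2 scale. Endothelial miR-126-3p rose by 0.28 ± 0.10 frontally and 0.41 ± 0.09 in the hippocampus and amygdala (edgeR adjusted p = 0.0273 and 0.000203). Its other arm, miR-126-5p, differed by 0.23 ± 0.14 and 0.28 ± 0.11 (edgeR adjusted p = 0.159 and 0.0326). At 1 week against sham none of these 24 passed in either region. Of 10 microglia and leukocyte miRNAs, 8 were tested. At 1 day 0 were called in frontal lobe and 3 in the other region (miR-142-5p, miR-155-5p and miR-223), in which 28.3% of all miRNAs were called as higher, and edgeR called 0 of the 8 in the 1 day interaction between region and group. Of 14 neuron miRNAs 12 were tested, with 4 higher and 2 lower in the frontal lobe and 6 and 2 in the hippocampus and amygdala. miR-9-1, miR-137, miR-138 and miR-212 rose and miR-124a and miR-129a-5p fell in both, and miR-129a-3p and miR-323 rose in the latter. Of 8 cardiac and skeletal muscle miRNAs 4 were tested and 1 fell in each region (miR-206), and of 3 oligodendrocyte miRNAs 2 fell (miR-219b-3p and miR-338) in the frontal lobe and 0 in the other region. Of the epithelial and choroid plexus miRNAs 1 of 7 tested rose in the frontal lobe (miR-204) and 1 of 5 fell in the hippocampus and amygdala (miR-205), and of the erythrocyte miRNAs 1 of 2 fell (miR-486) and 1 of 3 rose (miR-451). The summed level of 7 epithelial and choroid plexus miRNAs ran from 75.2 to 1837 CPM in frontal sham and from 243 to 1358 CPM at 1 day, and that of 3 erythrocyte miRNAs from 49.7 to 312 and from 41.8 to 149 CPM. The part of such other cells in the members' differences was not tested.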

How the data were processed

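Small RNA was sequenced from formalin-fixed, paraffin-embedded brain of female piglets. The authors deposited a table of raw read counts per miRNA. Trimmomatic 0.39 and cutadapt 1.9.1 are named in the submitters' processing notes, while for aligner, counter, annotation and build nothing is given in the sources used here. The table held 542 rows. Repeated rows were merged by keeping the one with the highest total, and 448 miRNAs remained.

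Groups were taken from the labels, and p-values measure the spread between these animals. Counts were tested with edgeR 4.0.16 (R 4.3.3) by quasi-likelihood F-tests with robust dispersion and TMM factors on all 4 groups within a region, after filterByExpr (min.count 10, min.total.count 15). Adjusted p are Benjamini-Hochberg values over all miRNAs tested, with a threshold of 0.05. Regions were compared in 1 joint fit of the 52 animals with both regions, with the animal as a block, since the animal codes pair the libraries (median correlation of deviations 0.22, 37 of 52 above 0.1, lowest -0.37). CPM use TMM factors set within a region, so levels across regions rest on separately scaled libraries. Ratios within a library used a pseudocount of 0.5 and a 2-sided permutation test of the mean log2 ratio with 100000 resamples, or all of them where a group had fewer than 10 libraries, adjusted over 50 comparisons. DESeq2 1.42.0, RLE scaling and other alternatives are given in the closing section. No 2 libraries agreed within sampling noise. The fit of groups within a region was tried on simulated counts for 1 comparison only, 1 day against sham in the frontal lobe. The joint fit of both regions was not tried in this way. The 95% intervals come from the same quasi-likelihood fits as the p-values and include the spread between animals. A floor covers counting error only and is 3 counts of the TMM-scaled library total.

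The members and lists were chosen with earlier results of these data known. The text names all members, miRNAs among the 3 of highest Spearman rho to a member in a region, and list miRNAs that were the most abundant of their list or called at 1 day against sham.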

Additional observations from a re-analysis of the deposited data

Results flagged for a closer look

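Of 36 sets of 9 or 10 libraries of 1 member in 1 group, 5 held a library far from the others. Chance gives about 1 in 20 for values without ties, and this rate does not hold for the 2 sets of miR-214-5p, where all other libraries are at 0 and any count is singled out. Frontal 1 day replicate 3 held 5.77 CPM of miR-145-3p, with the next library at 4.38. In the hippocampus and amygdala, 1 day replicate 2 held 6131 CPM of miR-143-3p (next 4080) and 10.0 CPM of miR-145-3p (next 4.81). miR-214-5p was seen in 1 library each at 1 day (replicate 4, 0.166 CPM, 2 counts) and with CsA (replicate 2, 0.264 CPM, 3 counts) of the hippocampus and amygdala, all others of these groups being at 0.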

How the results depend on the processing

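No called value changed sign under any alternative. The number of members called was as follows. With the log10 library total as a covariate it was 0 in the frontal lobe at 1 day (2 in the main analysis), 0 with CsA against sham (2), 1 between 1 week and 1 day (3), and 0 for the last in the hippocampus and amygdala (1). Over all miRNAs the same counts were 56, 20 and 74 of 284 (main 127, 97 and 102) and 64 of 290 (main 85). With the code class as a covariate the members called were 1 with CsA in the frontal lobe, 0 between 1 week and 1 day there and 0 in the hippocampus and amygdala. Over all miRNAs these were 79 and 54 of 284 and 19 of 290. Within codes 10 or 11 the members called were 0 with CsA and 0 between 1 week and 1 day in the frontal lobe, and 0 for the latter in hippocampus and amygdala. Over all miRNAs these were 0 and 63 of 278 and 33 of 290. Within codes 12 or 13 the members called were 0 at 1 day in each region and 0 with CsA in the frontal lobe. No miRNA at all was called in these (0 of 284 frontal and 0 of 288 in the other region at 1 day, 0 of 284 with CsA). Within codes 14 to 17, 1 member was called at 1 week against sham in the frontal lobe (main 0), among 64 of all 270 miRNAs. Without the libraries under 1000000 counts it was 1 (frontal) and 2 (hippocampus and amygdala, main 1) at 1 day. Of the ratios, 0 passed in the frontal lobe within each of the 3 code classes (3), and 1 passed in the hippocampus and amygdala without the shallow libraries (0). DESeq2 called 1 member in the CsA interaction (0). Without the replicate block the region comparison gave 0 members at 1 day and 1 at 1 week (3 each), against 109 and 94 of all 298 miRNAs (main 139 and 128). The cause of these changes was not tested, and a code class also holds fewer libraries than its whole group.

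As each library was left out, the number called ran from 1 to 3 at 1 day and from 1 to 3 with CsA against sham in the frontal lobe, and from 1 to 3 between 1 week and 1 day. In the hippocampus and amygdala it ran from 1 to 2 at 1 day and from 0 to 2 between 1 week and 1 day. Between regions it ran from 1 to 3 at 1 day and from 2 to 5 with CsA, and in the CsA interaction from 0 to 1. Leaving out libraries for the ratios was chosen after seeing the data. Depth limits miR-143-5p and both arms of miR-214.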
